A study of Homo sapiens with 36 samples.

Results

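NFE2L2, which encodes the transcription factor NRF2, was followed together with KEAP1, its repressor, and 8 enzyme genes that NRF2 is known to turn on (NQO1, HMOX1, TXNRD1, SRXN1, AKR1B10, AKR1C1, AKR1C2 and AKR1C3). These 10 genes were chosen by name among the 60662 genes of the deposited count table. All 10 passed the filter on low counts in each fit. The cells were A549, a human lung adenocarcinoma line known to carry a loss-of-function KEAP1 mutation. All groups carry that background. The labels do not mention it, and no KEAP1 wild-type cells were compared.

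Cells received siRNA against ATF4 (siATF4), siRNA against ATF6 (siATF6) or a non-targeting siRNA (siControl), each at 100 nM. Each transfected culture was divided and kept in DMEM with 0 mM or 25 mM glucose for 16 or 6 h, in both cases with dialysed serum and glutamine and without pyruvate. The 3 siRNAs, 2 glucose concentrations and 2 times gave 12 groups of 3 biological replicates, which makes 36 poly(A) RNA libraries. The labels do not say which libraries share a culture, so the main fits were unpaired. Calls that change with the replicate number as a block are given in the closing section. ATF4 is a transcription factor of the integrated stress response and ATF6 one of the unfolded protein response in the endoplasmic reticulum. The design asks how the RNA of A549 cells responds to glucose deprivation and which part of that response depends on ATF4 or ATF6.

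In most cells KEAP1 binds NRF2 and, with the CUL3 ubiquitin ligase, marks it for degradation. Oxidants and electrophiles block this step, and NRF2 then enters the nucleus, pairs with a small MAF protein and binds antioxidant response elements beside genes of detoxification, glutathione and thioredoxin metabolism. Where KEAP1 is lost, as in many lung cancers, NRF2 is active all the time. HMOX1 stands somewhat apart, because the repressor BACH1 and other stress factors, ATF4 among them, also act on it. Such control acts largely on NRF2 protein, which these RNA data do not measure.

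The 35 libraries used held between 39.4 and 78.7 M counts each. The library labelled siATF4, 0 mM, 6 h, replicate 3 held 2.87 M counts and had no positive correlation with any other library (highest r = -0.31). NFE2L2, KEAP1, HMOX1, TXNRD1, AKR1B10 and AKR1C3 all had 0 counts in it. It was left out, and with it in the fit none of the 10 genes passed the threshold in any 16 h comparison. In the 6 h libraries of replicate 2, the differences between 0 and 25 mM glucose ran against those of the other replicates with siControl and siATF6. Over 1939 genes, their correlation with the 16 h change was -0.63 with siControl and -0.62 with siATF6, against 0.56 to 0.63 in replicates 1 and 3. These libraries were kept as labelled, and 6 h results are also given without them. Epithelial keratin genes KRT7, KRT8 and KRT18 were high in the 35 libraries (at least 1418 CPM, the counts of a gene scaled to the size of its library). The other epithelial markers were lower, with KRT19 at 97.0 to 260 CPM and CDH1 at only 7.73 to 36.7 CPM. Of the markers of other cells, CD3E (T cells) was at 0, PTPRC (leukocytes), PECAM1 (endothelium) and DCN (fibroblasts) stayed at or below 0.188 CPM, and COL1A1 (fibroblasts) ran from 2.68 to 39.0 CPM. With deprivation at 16 h in siControl, COL1A1 fell by 1.36 (edgeR adjusted p = 0.000196) and the epithelial KRT19 by 0.75 (edgeR adjusted p = 0.00811) on the log2 scale. Their part in the results was not tested.

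The siRNA targets were checked first. At 16 h, ATF4 mRNA was at 190 ± 33.2 CPM with siATF4, against 460 ± 36.2 CPM with siControl, in 0 mM glucose (SD, n = 3 each). In 25 mM glucose it was at 130 ± 10.5 CPM with siATF4, against 157 ± 19.5 CPM with siControl, a difference that did not pass (log2 fold change -0.28, edgeR adjusted p = 0.759). ATF6 mRNA in 0 mM glucose was at 15.4 ± 4.99 CPM with siATF6, against 91.0 ± 0.816 CPM with siControl. In 25 mM glucose it was at 8.84 ± 1.29 CPM with siATF6, against 45.5 ± 0.621 CPM with siControl.

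The positions are those of the deposited table, on GRCh38, and the counts cover each gene's exons. The regulators are NFE2L2 (ENSG00000116044.16, chr2:177227595-177392697, minus strand) and KEAP1 (ENSG00000079999.14, chr19:10486125-10503558, minus strand). The oxidant defence genes are NQO1 (ENSG00000181019.13, chr16:69706996-69726668, minus strand), HMOX1 (ENSG00000100292.17, chr22:35380361-35394207, plus strand), TXNRD1 (ENSG00000198431.16, chr12:104215779-104350307, plus strand) and SRXN1 (ENSG00000271303.1, chr20:646615-653370, minus strand). The aldo-keto reductases are AKR1B10 (ENSG00000198074.10, chr7:134527567-134541412, plus strand), AKR1C1 (ENSG00000187134.14, chr10:4963253-4983283, plus strand), AKR1C2 (ENSG00000151632.17, chr10:4987400-5018031, minus strand) and AKR1C3 (ENSG00000196139.14, chr10:5035354-5107686, plus strand). The 3 AKR1C genes are neighbours on chromosome 10.

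Promoter sequence was available for 8 of the 10 genes, in 12 windows of 300 bases (250 before and 50 after a RefSeq start, GRCh38.p14). They were searched on both strands for the core of the antioxidant response element, TGACNNNGC (GCNNNGTCA on the other strand). The core occurred in 13.3% of 35116 such windows of all genes, and in windows of TXNRD1 and KEAP1 among the 8 genes. A window of TXNRD1 (thioredoxin reductase, plus strand, chr12:104215529-104215828) is shown because it holds the core on each strand, in capitals. The matches begin 99 and 8 bases before the start. The window of another TXNRD1 start (chr12:104286782-104287081), not shown, also holds a match, GCTTTGTCA. It begins 102 bases before that start. The core of the composite site bound by ATF4 with C/EBP factors, TGATGNAA, occurred in 3.62% of all windows and in none of the members' windows. A match is a description of letters and not a measured binding site.
TXNRD1: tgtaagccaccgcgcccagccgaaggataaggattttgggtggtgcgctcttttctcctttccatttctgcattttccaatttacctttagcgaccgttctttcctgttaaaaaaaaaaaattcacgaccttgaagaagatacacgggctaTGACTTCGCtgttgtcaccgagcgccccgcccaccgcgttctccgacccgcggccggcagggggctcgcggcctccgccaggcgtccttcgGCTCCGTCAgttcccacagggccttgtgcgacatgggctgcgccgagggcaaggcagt

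The windows of AKR1C1 (plus strand, chr10:4963165-4963464) and AKR1C2 (minus strand, chr10:5003808-5004107) are shown because these neighbouring genes are near copies of each other and yet gave different results with siATF4. They encode aldo-keto reductases that reduce steroids and reactive carbonyls. Over 292 aligned bases the windows were identical at 288 (98.6%). Capitals mark the 4 mismatches in each and the 4 bases of AKR1C1 that are missing in AKR1C2. Neither window holds either core.
AKR1C1: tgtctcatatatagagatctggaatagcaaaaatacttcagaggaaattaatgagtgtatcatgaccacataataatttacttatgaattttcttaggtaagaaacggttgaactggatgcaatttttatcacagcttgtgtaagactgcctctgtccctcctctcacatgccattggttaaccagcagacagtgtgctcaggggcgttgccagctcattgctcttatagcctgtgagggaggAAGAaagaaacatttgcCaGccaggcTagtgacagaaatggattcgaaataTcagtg
AKR1C2: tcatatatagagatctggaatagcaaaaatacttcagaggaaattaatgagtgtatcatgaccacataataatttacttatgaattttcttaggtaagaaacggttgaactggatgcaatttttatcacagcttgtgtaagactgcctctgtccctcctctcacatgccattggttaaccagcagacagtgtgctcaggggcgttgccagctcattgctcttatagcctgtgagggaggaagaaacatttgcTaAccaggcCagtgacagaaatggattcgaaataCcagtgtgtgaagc

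Levels between genes were compared as TPM, which corrects for transcript length and library size. Over the 35 libraries AKR1C2 had the highest median level of the 10 genes at 2498 TPM, which is rank 60 among all genes. AKR1B10, a reductase of aldehydes and retinals known for its high level in smoking-related lung cancers, followed at 2321 TPM. NQO1, a quinone reductase, had 2037 TPM, AKR1C3, which also makes androgens, 1423 TPM, and TXNRD1 1124 TPM. AKR1C1 had 509 TPM, SRXN1 (sulfiredoxin, which repairs oxidised peroxiredoxins) 331 TPM, and HMOX1 (heme oxygenase, which breaks down heme) 209 TPM. The regulators were lowest, with 67.9 TPM for KEAP1 and 63.1 TPM for NFE2L2. Together the 10 genes took 0.812% to 1.49% of all counts of a library.

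The spread over libraries differed between the genes. HMOX1 ran from 85.5 to 1083 CPM, 12.7-fold between the lowest and the highest library. AKR1B10 came next with 3.64-fold (939.5 to 3416 CPM), and KEAP1 was the steadiest with 1.57-fold (101 to 158 CPM). The other 7 genes ran over 1.85-fold (AKR1C2) to 2.63-fold (AKR1C1). Part of the spread followed the replicate number. AKR1B10 was lowest in replicate 1 in 12 of 12 groups, and AKR1C2 and AKR1C3 in 11 of 12, while TXNRD1 was highest in replicate 1 in 9.

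**Figure D1:**
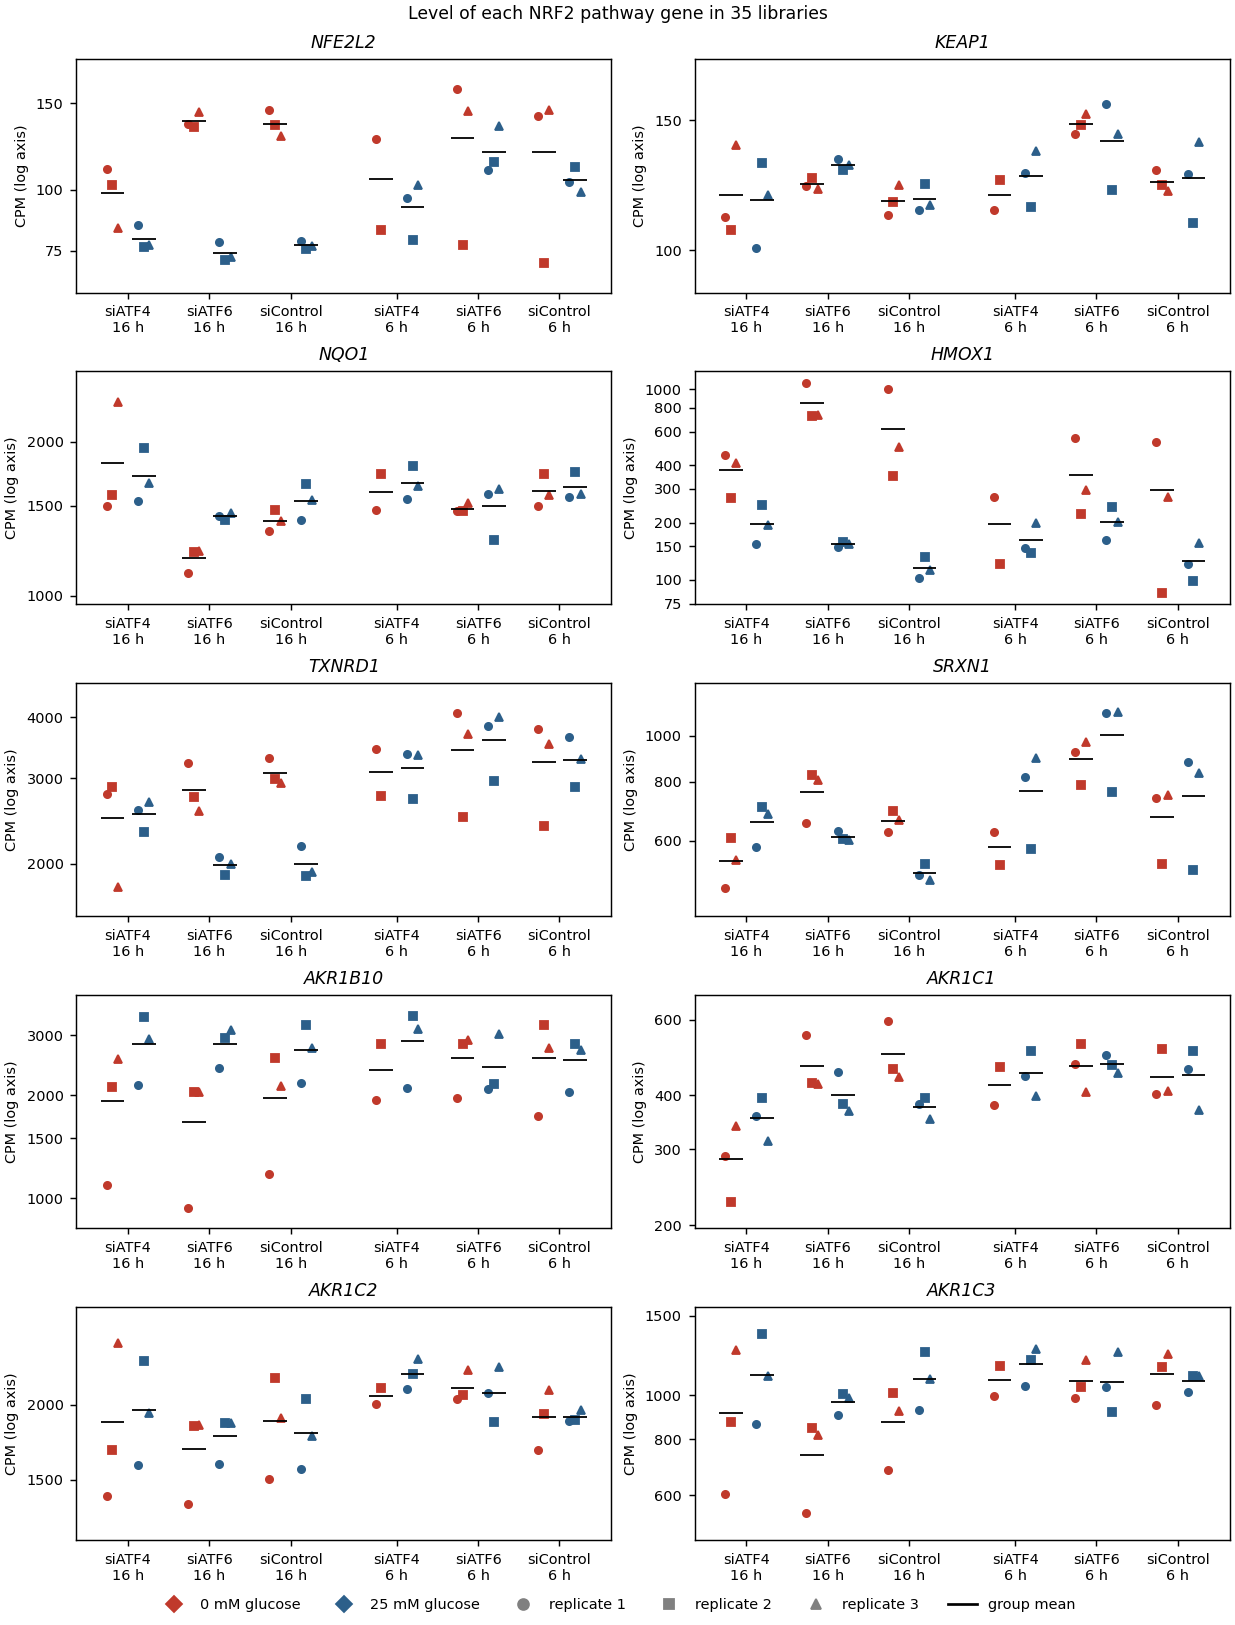
Level of each of the 10 genes in 35 libraries, in CPM on a log axis. Red symbols are 0 mM and blue symbols 25 mM glucose, shapes are replicates, and bars are group means. At 16 h the red symbols of NFE2L2 lie between 128 and 145 CPM with siControl, all above the blue ones.

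After 16 h without glucose, 4 of the 10 genes rose in siControl cells and none fell. They were HMOX1 (log2 fold change 2.41), NFE2L2 (0.82), TXNRD1 (0.62) and SRXN1 (0.36), while KEAP1, NQO1 and the 4 aldo-keto reductases did not pass the test. Among all 18013 genes tested, 29.0% passed in either direction and 14.6% rose, so many genes responded and 4 of 10 is to be read against that share. The median change of the 10 genes was 0.21, against 0.0093 for all genes. In bulk RNA, more cells with a transcript and more of it per cell cannot be told apart.

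HMOX1 was at 1003, 351 and 497 CPM in siControl cells without glucose, against 103, 132 and 113 CPM in 25 mM glucose. Every deprived culture was above every fed one, and replicate 1 was the highest. edgeR's quasi-likelihood test gave a log2 fold change of 2.41 (SE 0.32, adjusted p = 3.45e-05), and values between 1.87 and 2.69 with each library left out. NFE2L2 was at 145, 135 and 128 CPM without glucose, against 78.5, 75.5 and 76.8 CPM with it, so the groups were far apart and each was narrow. Its log2 fold change was 0.82 (SE 0.10, edgeR adjusted p = 1.28e-05). In the annotation, 20.9% of the exon bases of NFE2L2 overlap other genes. Most of the overlap is with AC019080.1 on the same strand (17.6%), so the counts depend on how reads were divided between these genes. AC079305.1 (3.18%) and AGPS (0.903%) lie on the opposite strand, where reads without strand cannot be assigned.

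TXNRD1 was at 3293, 2990 and 2930 CPM in siControl cells without glucose, against 2175, 1891 and 1922 CPM with it. The groups did not overlap, and the log2 fold change was 0.62 (SE 0.15, edgeR adjusted p = 0.00571). SRXN1 was at 626, 693 and 662 CPM without glucose, against 508, 534 and 494 CPM with it. These groups did not overlap either, and the log2 fold change of 0.36 passed narrowly (SE 0.12, edgeR adjusted p = 0.0263). SRXN1 kept its call in 2 of the 6 fits that leave out a library, with edgeR adjusted p from 0.0383 to 0.0921, and lost it without a filter on low counts (0.0791). Of its exon bases, 85.0% lie under AL121758.1, a gene annotated on the same strand, so its counts depend on how reads were divided between these genes.

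NQO1, KEAP1 and AKR1B10 did not pass in this fit. NQO1 was at 1336, 1468 and 1397 CPM without glucose, against 1409, 1654 and 1541 CPM with it. The groups overlapped (log2 fold change -0.13, edgeR adjusted p = 0.546). Of the NQO1 exon bases, 17.7% lie over AC092115.2 on the opposite strand, which reads without strand cannot separate. KEAP1 was at 112, 116 and 123 CPM without glucose, against 113, 123 and 115 CPM with it (-0.0078, edgeR adjusted p = 0.967). AKR1B10 was at 1178, 2573 and 2132 CPM without glucose, against 2178, 3199 and 2757 CPM with it. The groups overlapped, with replicate 1 the lowest in both. The log2 fold change of -0.47 did not pass (SE 0.34, edgeR adjusted p = 0.339). Each deprived culture was below the fed one of the same number. With the replicate number as a block, AKR1B10 passed as lower (closing section).

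The 3 AKR1C genes differed among themselves. AKR1C1 was at 595, 462 and 442 CPM in siControl cells without glucose, against 382, 394 and 352 CPM with it. All deprived cultures were above all fed ones. The log2 fold change of 0.41 missed the threshold (SE 0.16, edgeR adjusted p = 0.069), but passed with the replicate number as a block (closing section). AKR1C2 was at 1506, 2221 and 1903 CPM without glucose, against 1564, 2045 and 1778 CPM with it, and the groups lay over each other (0.06, edgeR adjusted p = 0.863). AKR1C3 was at 682, 1010 and 923 CPM without glucose, against 926, 1249 and 1087 CPM with it (-0.32, edgeR adjusted p = 0.362).

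**Figure D2:**
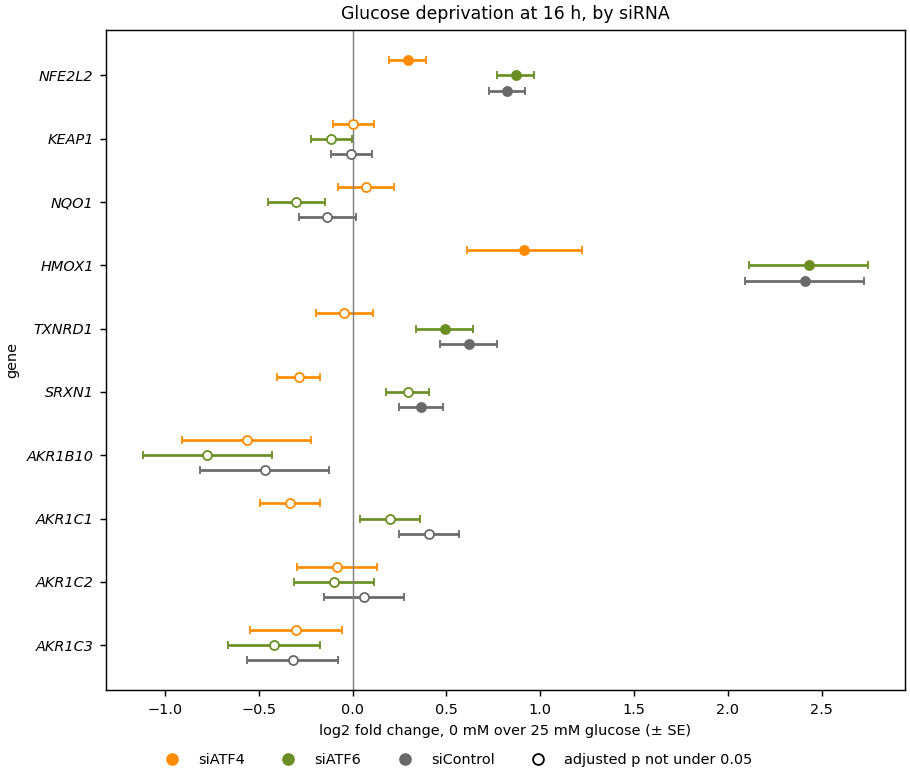
Log2 fold change of each gene between 0 and 25 mM glucose at 16 h with each siRNA, with its SE from edgeR. Filled symbols have an adjusted p under 0.05. HMOX1 and NFE2L2 are filled with all 3 siRNAs, and HMOX1 lies at 0.92 with siATF4, 2.43 with siATF6 and 2.41 with siControl.

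Of 40 other NRF2 target genes, listed from general knowledge, 10 rose and 3 fell with deprivation in siControl cells, with a median of 0.13. Of all genes tested, 14.6% rose and 14.5% fell, so the list's count is close to that share for the 2 directions together. Those with the smallest adjusted p among the ones that rose were SESN2, a stress-induced regulator of metabolism, and IDH1, an enzyme that makes NADPH. SESN2 averaged 97.3 ± 41.5 CPM without glucose, against 10.4 ± 0.414 CPM with it, and rose by 3.22 (edgeR adjusted p = 1.56e-07). IDH1 averaged 474 ± 51.0 CPM without glucose, against 201 ± 8.48 CPM with it, and rose by 1.23 (edgeR adjusted p = 1.48e-06). CAT, which encodes catalase, fell by 0.87 (edgeR adjusted p = 3.51e-05), the drug-conjugating enzyme UGT1A6 by 3.38 at under 3 CPM (edgeR adjusted p = 0.00183) and the carbonyl reductase CBR1 by 0.53 (edgeR adjusted p = 0.00866).

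Of 11 genes that bind or control NRF2, 6 rose and none fell, with a median of 0.68, beside 14.6% of all genes that rose and a median of 0.0093 over all genes. SQSTM1, whose protein p62 sequesters KEAP1, averaged 3500 ± 501 CPM without glucose, against 1406 ± 71.6 CPM with it (log2 fold change 1.31, edgeR adjusted p = 2.61e-06). NFE2L1, a relative of NRF2, averaged 773 ± 80.2 CPM without glucose, against 314 ± 34.7 CPM with it (1.30, edgeR adjusted p = 1.84e-05). Of 8 relatives of the AKR genes, 5 could be tested. Of these, 1 rose and 1 fell, beside 14.6% of all genes that rose and 14.5% that fell. AKR1C4 fell by 1.27 at under 1 CPM (edgeR adjusted p = 0.0398), a call kept in 2 of 6 fits with a library left out.

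With siATF6, 3 of the 10 genes rose with deprivation at 16 h (33.5% of all genes passed, 15.6% upward). HMOX1 was at 1083, 723 and 732 CPM without glucose, against 149, 158 and 155 CPM with it, with every deprived culture far above every fed one. It rose by 2.43 on the log2 scale (SE 0.32, edgeR adjusted p = 2.54e-05). NFE2L2 was at 136, 134 and 144 CPM without glucose, against 78.1, 71.8 and 72.8 CPM with it, and rose by 0.87 (SE 0.10, edgeR adjusted p = 6.21e-06).

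TXNRD1 was at 3221, 2738 and 2566 CPM in siATF6 cells without glucose, against 2062, 1895 and 2002 CPM with it. The groups did not overlap and the gene rose by 0.49 (SE 0.15, edgeR adjusted p = 0.0198), a call kept in 3 of 6 fits with a library left out. SRXN1 was at 653, 828 and 806 CPM without glucose, against 628, 605 and 601 CPM with it, and its 0.29 missed the threshold (edgeR adjusted p = 0.0622), while it passed with median-of-ratios factors (edgeR adjusted p = 0.043), in DESeq2 (adjusted p = 0.0218) and without replicate 1 of 0 mM glucose (edgeR adjusted p = 0.0198). AKR1B10 was at 940, 2043 and 2045 CPM without glucose, against 2411, 2937 and 3098 CPM with it. All its deprived cultures were below all fed ones, with a log2 fold change of -0.78 that did not pass (SE 0.34, edgeR adjusted p = 0.0959). NQO1 (-0.30), AKR1C3 (-0.42) and KEAP1 (-0.11) were also below their fed cultures without overlap and did not pass. The share of all genes whose groups did not overlap was not counted in any comparison. Absence of overlap is therefore a description of these cultures only. With the replicate number as a block, AKR1B10 and AKR1C3 passed as lower and SRXN1 as higher (closing section).

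With siATF4, 2 of the 10 genes rose with deprivation at 16 h (29.1% of all genes passed, 14.9% upward), and the median of the 10 genes was -0.06, against -0.0074 for all genes. HMOX1 was at 452, 269 and 411 CPM without glucose, against 154, 246 and 193 CPM with it. The groups came close but did not overlap, and HMOX1 rose by 0.92 (SE 0.30, edgeR adjusted p = 0.0333). NFE2L2 was at 110, 102 and 83.3 CPM without glucose, against 84.5, 76.4 and 77.2 CPM with it. Replicate 3 without glucose overlapped the fed cultures, and NFE2L2 rose by 0.29 (SE 0.10, edgeR adjusted p = 0.0342). Each of these calls was kept in 2 of 6 fits with a library left out, where HMOX1 ran from 0.77 to 1.11 and NFE2L2 from 0.21 to 0.40. Neither passed without a filter on low counts (edgeR adjusted p = 0.0781 for HMOX1 and 0.143 for NFE2L2).

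TXNRD1 was at 2788, 2872 and 1794 CPM in siATF4 cells without glucose, against 2576, 2325 and 2679 CPM with it, and replicate 3 stood below all other cultures (log2 fold change -0.04, edgeR adjusted p = 0.858). That library had a scaling factor of 0.775, the lowest of the 35, and its part in the values was not tested beyond leaving it out. SRXN1 was at 476, 609 and 546 CPM without glucose, against 580, 707 and 683 CPM with it (-0.29, edgeR adjusted p = 0.0729). AKR1C1 was at 290, 226 and 339 CPM without glucose, against 358, 394 and 313 CPM with it (-0.34, edgeR adjusted p = 0.129). Both sat mostly lower without glucose, with 1 deprived culture above 1 fed culture in each gene.

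The direct comparison of siATF4 with siControl in 0 mM glucose at 16 h gave 2 lower and no higher genes among the 10. Among all genes 12.4% passed, and 5.09% were lower. AKR1C1 was at 290, 226 and 339 CPM with siATF4, against 595, 462 and 442 CPM with siControl. The groups did not overlap, and AKR1C1 was lower by a log2 fold change of -0.82 (SE 0.16, edgeR adjusted p = 0.00645). NFE2L2 was at 110, 102 and 83.3 CPM with siATF4, against 145, 135 and 128 CPM with siControl. It did not overlap either, with a log2 fold change of -0.48 (SE 0.10, edgeR adjusted p = 0.00749).

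Both calls were kept in all 6 fits that leave out a library. Without replicate 3 of siATF4, the library with the low scaling factor, AKR1C1 was at -0.97 (edgeR adjusted p = 0.00333) and NFE2L2 at -0.38 (edgeR adjusted p = 0.0142). In the same fit the number of all genes past the threshold dropped to 912, against 2235 with it. HMOX1 was at 452, 269 and 411 CPM with siATF4, against 1003, 351 and 497 CPM with siControl. These groups overlapped, and the log2 fold change of -0.73 did not pass (SE 0.30, edgeR adjusted p = 0.118), though it passed without replicate 2 of siControl (-1.01, edgeR adjusted p = 0.047).

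TXNRD1 and SRXN1 were lower with siATF4 without overlap in 0 mM glucose, at -0.32 and -0.29, and neither passed (edgeR adjusted p = 0.161 and 0.0985). SRXN1 passed without replicate 2 of siATF4 (-0.39, edgeR adjusted p = 0.0351). NQO1 was at 1496, 1574 and 2390 CPM with siATF4, against 1336, 1468 and 1397 CPM with siControl. All its siATF4 cultures were higher, most of all replicate 3, but the log2 fold change of 0.37 did not pass (edgeR adjusted p = 0.113) except without replicate 1 of siATF4 (0.49, edgeR adjusted p = 0.0357). AKR1C2 (-0.01), AKR1C3 (0.05), AKR1B10 (-0.04) and KEAP1 (0.0097) lay close to their siControl levels, with SEs of 0.21, 0.25, 0.34 and 0.11.

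**Figure D3:**
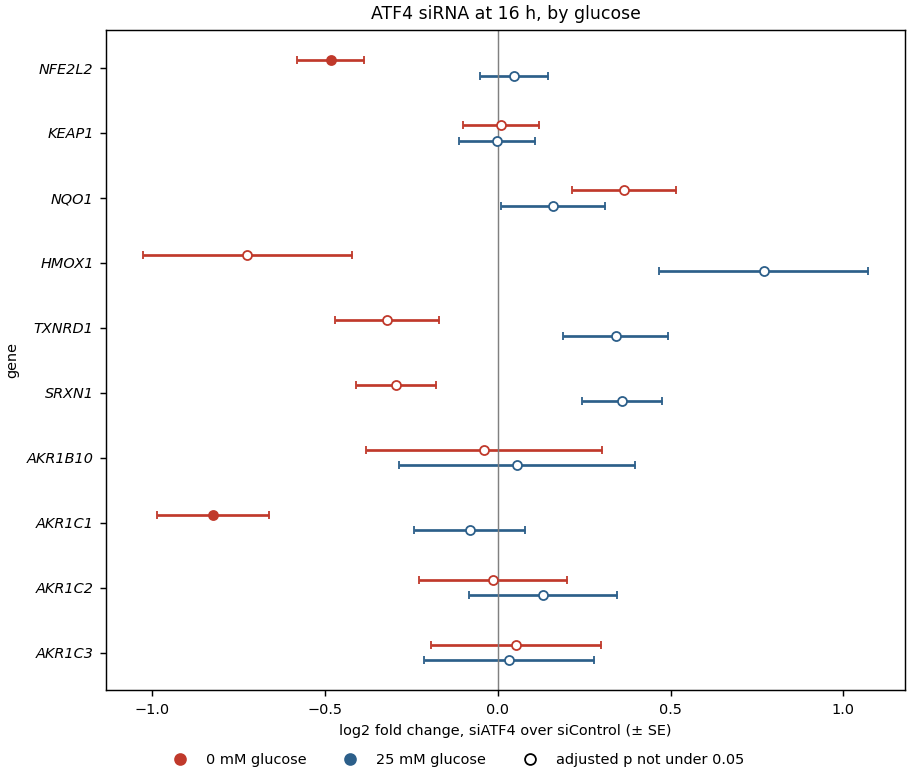
Log2 fold change of each gene between siATF4 and siControl at 16 h in 0 mM (red) and 25 mM glucose (blue), with its SE from edgeR. Filled symbols have an adjusted p under 0.05, which are AKR1C1 (-0.82) and NFE2L2 (-0.48) in 0 mM glucose.

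In 25 mM glucose, siATF4 against siControl gave no call among the 10 genes in edgeR or DESeq2 (0.0444% of all genes passed in edgeR). An unadjusted p under 0.05 was found for 3 of the 10 and for 1248 of 18013 genes. SRXN1 was at 580, 707 and 683 CPM with siATF4, against 508, 534 and 494 CPM with siControl, with no overlap and a log2 fold change of 0.36 (edgeR adjusted p = 0.422). HMOX1 was at 154, 246 and 193 CPM with siATF4, against 103, 132 and 113 CPM with siControl, again without overlap (0.77, edgeR adjusted p = 0.614). TXNRD1 stood at 0.34 (edgeR adjusted p = 0.68) and AKR1C1 at -0.08 (edgeR adjusted p = 0.995).

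Whether the response to deprivation itself differed with siATF4 was tested as an interaction, which shares its siControl cultures with the comparisons above. No gene of the 10 passed in edgeR, and 31 of 18013 genes (0.172%) passed in all. An unadjusted p under 0.05 was found for 5 of the 10 and for 1650 of the 18013 genes. The 5 were SRXN1 at -0.65 (SE 0.16), NFE2L2 at -0.53 (SE 0.14), HMOX1 at -1.49 (SE 0.43), AKR1C1 at -0.74 (SE 0.23) and TXNRD1 at -0.66 (SE 0.21), with edgeR adjusted p between 0.178 and 0.387. All 5 were negative, so the log2 change with deprivation was lower with siATF4 than with siControl. DESeq2 called 2 of them, NFE2L2 (-0.51, adjusted p = 0.0333) and SRXN1 (-0.63, adjusted p = 0.0137). It also called more genes in all, 196 against 31 in edgeR.

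Reads of AKR1C1 and AKR1C2 can be exchanged in counting. Of the distinct stretches of 150 bases, one read length, in the AKR1C1 transcripts, 10.7% also occur in AKR1C2, and 17.3% of those of AKR1C2 occur in AKR1C1. No such stretch of AKR1C1 occurs in AKR1C3. With AKR1C1, AKR1C2, AKR1C3 and AKR1C4 summed, siATF4 against siControl in 0 mM glucose gave -0.09 (SE 0.20, edgeR adjusted p = 0.778), so the lower AKR1C1 was not visible in the sum, of which it is a small share.

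AKR1C1 was therefore also set against AKR1C2 within each library. In 0 mM glucose at 16 h the level of AKR1C1 was 19.4, 12.7 and 12.7% of that of AKR1C2 with siATF4, on the TPM scale. It was 38.2, 21.9 and 21.7% with siATF6, and 37.3, 19.7 and 21.9% with siControl. The siATF4 cultures were below all others of that medium, and replicate 1 was highest with each siRNA. The log2 ratio differed by -0.79 between siATF4 and siControl (two-sided exact permutation p = 0.1, the smallest that 3 against 3 can give). In 25 mM glucose the shares were 21.3, 15.7 and 15.3% with siATF4, 26.9, 19.4 and 18.6% with siATF6 and 23.1, 18.2 and 18.7% with siControl. There the groups overlapped (-0.21 between siATF4 and siControl, exact permutation p = 0.3), though each siATF4 share was below the siControl share of the same number. At 6 h the groups overlapped too, and in both media each siATF4 share was again below the siControl share of the same number. The mean share in 25 mM glucose was 18.9% with siATF4 and 22.1% with siControl. In 0 mM glucose it was 19.2% (n = 2) and 22.0%.

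**Figure D4:**
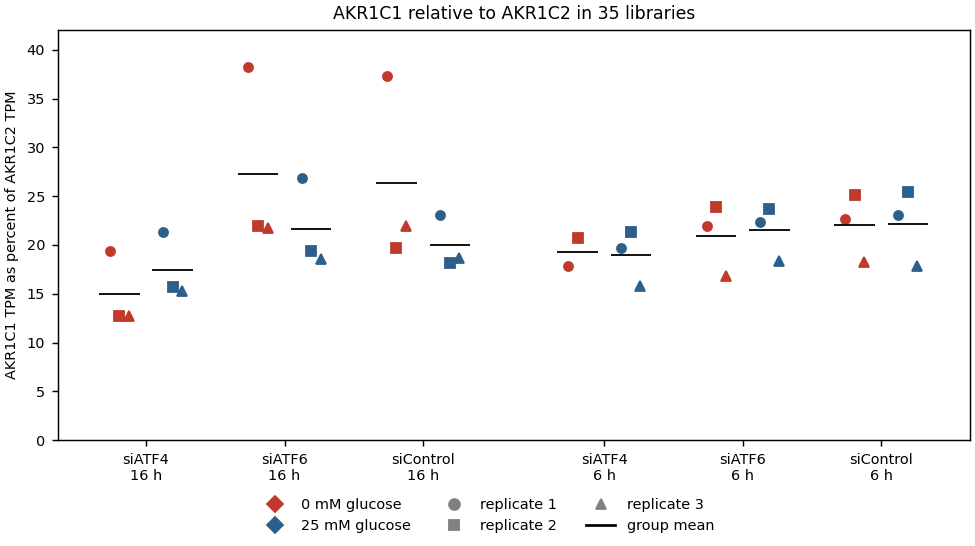
Level of AKR1C1 as a percentage of AKR1C2 in each of 35 libraries, from TPM values, by siRNA, time and glucose (red 0 mM, blue 25 mM; shapes are replicates). Bars are group means. In 0 mM glucose at 16 h the 3 siATF4 libraries lie at 12.7 to 19.4%, below the siControl libraries at 19.7 to 37.3%.

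Of the 40 other NRF2 targets, 9 were lower and 1 higher with siATF4 than with siControl in 0 mM glucose at 16 h, 30 did not pass, and the median was -0.0049. Of all genes tested, 5.09% were lower and 7.32% higher. IDH1 averaged 173 ± 25.0 CPM with siATF4, against 474 ± 51.0 CPM with siControl (log2 fold change -1.47, edgeR adjusted p = 1.02e-05). GCLM, the modifier subunit of the enzyme that starts glutathione synthesis, averaged 252 ± 37.6 CPM with siATF4, against 410 ± 5.58 CPM with siControl (-0.71, edgeR adjusted p = 0.000638). SLC7A11, the cystine transporter, averaged 205 ± 75.2 CPM with siATF4, against 541 ± 2.52 CPM with siControl (-1.42, edgeR adjusted p = 0.0033). Malic enzyme ME1 was at -0.57 (edgeR adjusted p = 0.00253). SLC7A11 is also a known direct target of ATF4.

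Of the genes that bind or control NRF2, NFE2L1 was lower (-0.81) and none was higher with siATF4 in 0 mM glucose. FTL (0.89), the ferritin light chain, and the reductases AKR1A1 (0.58) and AKR7A2 (0.65) were higher. These 3 calls were each kept in 2 of 6 fits with a library left out, and without replicate 3 of siATF4 the values were 0.44, 0.35 and 0.31. The interaction of deprivation with siATF4 was called for IDH1 (-1.06, SE 0.17, edgeR adjusted p = 0.0129) and GCLM (-0.85, SE 0.14, edgeR adjusted p = 0.0172) among the 40.

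With siATF6 against siControl none of the 10 genes passed at 16 h in edgeR or DESeq2. In 0 mM glucose 4.02% of all genes passed, and 3235 of 18013 had an unadjusted p under 0.05, with no member among them. In 25 mM glucose 0.749% passed, and 1962 had an unadjusted p under 0.05, with 1 member among them, SRXN1. HMOX1 in 0 mM glucose stood at 0.44 (SE 0.30, edgeR adjusted p = 0.491), and it passed without replicate 1 of siControl, at 0.98 (edgeR adjusted p = 0.0412). SQSTM1 was higher with siATF6 in 0 mM (0.61, edgeR adjusted p = 0.0165) and 25 mM glucose (0.80, edgeR adjusted p = 0.0102). IDH1 was lower in 0 mM (-0.57, edgeR adjusted p = 0.0121). Each of these calls was lost in at least 3 of 6 fits with a library left out. No interaction with siATF6 passed for any gene in edgeR, where 412 of 18013 had an unadjusted p under 0.05 and DESeq2 called 16, none among the 10. HMOX1 was at 0.02 there (SE 0.43).

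At 6 h no gene of the 10 passed in any of 7 comparisons of glucose or siRNA in edgeR or DESeq2. The share of all genes that passed in edgeR was 0% in 5 of them (148 to 968 genes with an unadjusted p under 0.05, and 0 to 36 called by DESeq2), 0.311% for siATF6 against siControl in 0 mM and 0.496% in 25 mM glucose. For siATF6 against siControl, 2257 (0 mM) and 2197 (25 mM) of 18355 genes had an unadjusted p under 0.05. Among the 10, HMOX1 with deprivation in siControl had such a p. So did AKR1C2 with siATF4 in 25 mM and KEAP1 with siATF6 in 0 mM glucose. HMOX1 was at 527, 85.5 and 271 CPM in siControl cells without glucose, against 121, 98.5 and 157 CPM with it. Replicates 1 and 3 were higher without glucose and replicate 2 was lower, the library pair that ran against the others. The log2 fold change was 1.23 (SE 0.51, edgeR adjusted p = 1), and 1.52 without replicate 2 (edgeR adjusted p = 0.108).

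NFE2L2 at 6 h was at 141, 70.9 and 145 CPM in siControl cells without glucose, against 104, 111 and 98.9 CPM with it. Again replicate 2 was low, and without it NFE2L2 passed with a log2 fold change of 0.50 (edgeR adjusted p = 0.047). With siATF6, NFE2L2 was at 161, 77.0 and 145 CPM without glucose, against 109, 114 and 135 CPM with it. HMOX1 was at 552, 223 and 294 CPM without glucose, against 162, 241 and 201 CPM with it. Replicate 2 was the lowest deprived culture in both genes. With siATF4, HMOX1 was at 273 and 121 CPM in the 2 cultures without glucose, against 147, 138 and 199 CPM with it, and the groups overlapped.

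The other 6 h groups differed little in mean beside their spread. AKR1C1 averaged 423 to 468 CPM in the 3 groups without glucose and 446 to 472 CPM in the 3 with it. NQO1 averaged 1481 to 1602 CPM without glucose and 1495 to 1659 CPM with it. SRXN1 averaged 895 ± 95.9 CPM with siATF6, against 674 ± 121 CPM with siControl, without glucose, and 1002 ± 209 CPM with siATF6, against 745 ± 197 CPM with siControl, in 25 mM glucose (SD, n = 3 each). These log2 fold changes of 0.41 and 0.43 did not pass (edgeR adjusted p = 0.483 and 0.468).

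Time was compared in siControl cells. In 0 mM glucose none of the 10 genes differed between 16 and 6 h in edgeR or DESeq2 (13.4% of all genes passed). An unadjusted p under 0.05 was found for 1 member and for 5097 of 19030 genes. HMOX1 averaged 617 ± 342 CPM at 16 h, against 295 ± 222 CPM at 6 h (SD, n = 3 each), a log2 fold change of 1.07 (edgeR adjusted p = 0.112). It passed without replicate 1 of 6 h, at 1.79 (edgeR adjusted p = 0.0102). In 25 mM glucose none passed in edgeR (0.273% of all genes, 52 in number). DESeq2 called TXNRD1, among 218 genes that it called in all. There 3 members and 1724 of 19030 genes had an unadjusted p under 0.05.

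TXNRD1 in 25 mM glucose was at 2175, 1891 and 1922 CPM at 16 h, against 3641, 2879 and 3287 CPM at 6 h, with no overlap. The log2 fold change was -0.71 (SE 0.18, edgeR adjusted p = 0.107; DESeq2 adjusted p = 0.0211). SRXN1 was at 508, 534 and 494 CPM at 16 h, against 881, 519 and 834 CPM at 6 h, where replicate 2 overlapped (-0.54, edgeR adjusted p = 0.258). Without the 6 h libraries of replicate 2 both were lower at 16 h, TXNRD1 at -0.80 (edgeR adjusted p = 0.00571) and SRXN1 at -0.74 (edgeR adjusted p = 0.000655).

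The genes whose group means ran most like those of HMOX1, AKR1C1 and NFE2L2 were looked up among 11203 genes, by the Pearson correlation of log2(CPM + 1) over the 12 groups. The groups share their siRNAs, media and times, so such correlations are a description only. For NFE2L2 they included RBAK (r = 0.978), MAFG (0.977), ADM2 (0.976) and CARS1 (0.973). MAFG encodes one of the small MAF proteins with which NRF2 pairs. For HMOX1 they were HSPBAP1 (0.965), VPS37B (0.96), LZTFL1 (0.956), HSPA6 (0.953) and FAM83G (0.952). For AKR1C1 they were ZFHX3 (0.943), ZRANB1 (0.937), STAG3L5P (0.935), APOL6 (0.928) and LMO4 (0.925).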

How the data were processed

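RNA of 36 A549 libraries was poly(A)-selected, prepared without strand and read as pairs of 150 bases, per the labels' protocols. The deposited table holds expected counts per gene, which the authors made with fastp, STAR, RSEM and GRCh38, per the submitters' processing notes. Versions and annotation release are not given in the sources used here. Expected counts were rounded to whole numbers. All columns were used.

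The test was the quasi-likelihood F test of edgeR 4.0.16 under R 4.3.3 (filterByExpr with minimum count 10 and minimum total 15, TMM factors, robust dispersion, Benjamini-Hochberg over all genes, threshold 0.05), with 1 mean per group and no covariates. Comparisons at 16 h used the 18 libraries of that time, those at 6 h 17 libraries, and those of time 35. CPM values use TMM-scaled totals. TPM values use the effective lengths of the deposited table. DESeq2 1.42.0 and the settings described in the closing section were alternatives. The pipeline was tested on simulated data.

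All 10 members are named. Of the other NRF2 lists, up to 4 genes per direction with the smallest adjusted p are named, and 5 genes per likeness list with a mean of at least 5 CPM. In the list for NFE2L2, 1 gene is not reported here. The members and lists were chosen with earlier results of these data known. Promoter sequences are those of RefSeq, GRCh38.p14. The labels call the replicates biological without naming separate dates, so p-values measure the spread between cultures of 1 cell line.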

Additional observations from a re-analysis of the deposited data

Results flagged for a closer look

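Among the NRF2 pathway genes, IDH1 and GCLM showed a response to deprivation at 16 h that differed between siATF4 and siControl cells in a test of the difference itself. IDH1, which makes NADPH in the cytosol, averaged 173 ± 25.0 CPM with siATF4 without glucose, against 152 ± 18.8 CPM in 25 mM glucose. With siControl it averaged 474 ± 51.0 CPM without glucose, against 201 ± 8.48 CPM with it (SD, n = 3 each). The interaction was -1.06 on the log2 scale (SE 0.17, edgeR adjusted p = 0.0129) and was called in 9 of 12 fits with a library left out, from -1.17 to -0.96.

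GCLM, a subunit of the first enzyme of glutathione synthesis, averaged 252 ± 37.6 CPM with siATF4 without glucose, against 281 ± 16.4 CPM with it. With siControl it averaged 410 ± 5.58 CPM without glucose, against 256 ± 9.10 CPM with it (SD, n = 3 each). The interaction was -0.849 (SE 0.14, edgeR adjusted p = 0.0172), was called in 8 of 12 fits with a library left out, and was not called without a filter on low counts (edgeR adjusted p = 0.0974).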

How the results depend on the processing

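With all 36 libraries, including the one with 2.87 M counts, the number of the 10 genes that passed was 0 for deprivation with siControl, siATF4 and siATF6 and for siATF4 against siControl in 0 mM glucose at 16 h, where it was otherwise 4, 2, 3 and 2. The number of all genes that passed was 531, 325, 831 and 14, against 5229, 5233, 6033 and 2235. Without a filter on low counts, deprivation with siATF4 gave 0 of the 10. DESeq2 gave 2 for the interaction with siATF4 and 1 for time in 25 mM glucose, where it called 196 and 218 of all genes. Without the 6 h libraries of replicate 2, deprivation in siControl at 6 h gave 1 and time in 25 mM glucose 2. Over all alternatives, the number of all genes called in these comparisons reached 736 and 233, against 0 and 52 in the main fit. With each library left out, the counts were 3 to 4 (deprivation, siControl), 0 to 2 (siATF4), 2 to 3 (siATF6), 2 to 3 (siATF4 in 0 mM glucose), 0 to 1 (siATF6 in 0 mM glucose), 0 to 1 (time in 0 mM glucose) and 0 elsewhere. No value past the threshold changed sign. All-gene counts of the 16 h comparisons of siATF4 with siControl in 0 mM glucose ran from 14 to 4076 over the alternatives, and from 543 to 4029 with a library left out.

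Same-numbered libraries mostly deviated together, but not in every pair. The correlation of their deviations with the same siRNA at 16 h had a median of 0.533 over 9 pairs and ran from -0.655 to 0.797, against a median of -0.42 for pairs with different numbers. The labels do not say that a number marks a shared culture. With the replicate number as a block, deprivation at 16 h gave 6 of the 10 genes with siControl, 4 with siATF4 and 6 with siATF6. Over all alternatives, of which this block is only 1, the number of all genes called reached 6744, 6851 and 7611. In the main fit it was 5229, 5233 and 6033. Beside AKR1B10, the block added AKR1C1 with siControl (0.40, edgeR adjusted p = 0.0435) and SRXN1 with siATF4 (-0.29, edgeR adjusted p = 0.0263). With siATF6 it added SRXN1 (0.28, edgeR adjusted p = 0.0261) and AKR1C3 (-0.45, edgeR adjusted p = 0.0302). For siATF4 against siControl in 0 mM glucose it gave SRXN1 (-0.30, edgeR adjusted p = 0.0372) beside the other calls there. The interaction with siATF4 gave 1 (SRXN1, -0.65, edgeR adjusted p = 0.0386). There the number of all genes called reached 196 over all alternatives, against 31 in the main fit. At 6 h, siATF6 against siControl gave 1 in 0 mM and 1 in 25 mM glucose (SRXN1). In these comparisons the number of all genes called reached 905 and 910 over all alternatives, against 57 and 91 in the main fit. Time in 25 mM glucose gave 1 (TXNRD1). AKR1B10 passed as lower with deprivation under this block with siATF4 (-0.62, edgeR adjusted p = 0.014), siATF6 (-0.86, edgeR adjusted p = 0.00142) and siControl (-0.53, edgeR adjusted p = 0.0306). With the transfected culture as a block, deprivation with siATF4 gave 1, AKR1B10 (-0.63, edgeR adjusted p = 0.0432), and lost both of its calls, NFE2L2 (0.29, edgeR adjusted p = 0.0537) and HMOX1 (0.91, edgeR adjusted p = 0.0677). With siATF6 this block added AKR1B10 (-0.85, edgeR adjusted p = 0.00972). The lowest level of any of the 10 genes was 70.9 CPM, in libraries of at least 39.4 M counts. Counting error was not compared with the spread between cultures. That spread was narrow in some groups, such as NFE2L2 with siControl in 25 mM glucose at 16 h. The cause of the differences between settings was not tested.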

Other observations

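In the knockdown cells the same lists were counted for deprivation at 16 h. With siATF6, 8 of the 40 other targets rose and 7 fell, and of the 11 partners 6 rose and 2 fell, beside 15.6% of all genes that rose and 17.9% that fell. The count for the 40 targets is close to that share. SESN2 averaged 137 ± 24.9 CPM without glucose, against 9.63 ± 0.675 CPM with it (SD, n = 3 each), and rose by 3.81 (edgeR adjusted p = 3.38e-08). MAFG, a small MAF partner of NRF2, rose by 0.80 (edgeR adjusted p = 6.64e-06), while CAT fell by 0.97 (edgeR adjusted p = 9.97e-06) and GSR, glutathione reductase, by 0.45 (edgeR adjusted p = 0.00105). With siATF4, 5 of the 40 rose and 3 fell, and of the 11 partners 4 rose and 2 fell, beside 14.9% of all genes that rose and 14.2% that fell. The count for the 40 targets is below that share. SESN2 averaged 57.4 ± 11.0 CPM without glucose, against 14.3 ± 2.54 CPM with it, and rose by 1.99 (edgeR adjusted p = 2.19e-05). MAFF, another small MAF, rose by 1.92 (edgeR adjusted p = 0.000833), and CUL3, the ligase scaffold that works with KEAP1, fell by 0.32 (edgeR adjusted p = 0.00835).

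Between 16 and 6 h in siControl cells without glucose, 3 of the 40 rose and 3 fell, close to the share of all genes that passed (6.21% higher and 7.21% lower at 16 h). IDH1 (1.17, edgeR adjusted p = 5.33e-08) and the ferritin heavy chain FTH1 (0.64, edgeR adjusted p = 0.00394) were higher at 16 h, and CAT (-0.70, edgeR adjusted p = 0.000152) was lower.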
